A study of Mus musculus with 7 samples.

Results

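Collagen genes were described across the cell types of mouse hindlimb muscle and across muscle stem cells at rest, after injury and in culture. The set holds every gene whose symbol is made of Col, a number, the letter a and a number, and that had at least 10 unique molecular identifiers (UMIs, each standing for 1 counted RNA molecule) over the 7 libraries. This took 41 of 44 collagen symbols among 27998 genes. Just inside that limit lay Col4a6 with 13 UMIs and Col6a5 with 14, and outside it Col9a1 with 5, Col10a1 with 2 and Col6a4 with 1. Cell types were assigned by marker lists without any collagen gene, so no collagen value decided a cell's type.

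All libraries came from the strain given as C56BL/6J and were made with a droplet kit that reads the 3' end of each RNA. Total muscle (2 libraries) is every live cell that cell sorting took from hindlimb muscle of wild-type mice at 3 months, after digestion with enzymes. Homeostatic muscle stem cells (MuSCs, or satellite cells; 2 libraries) were sorted from muscle with no stated injury. Injured MuSCs (2 libraries) were sorted from TE-EDL muscles 60 h after 2 µM notexin, a snake venom toxin that kills muscle fibres. The culture (1 library) is of primary myoblasts grown from satellite cells of wild-type mice aged 3 months and kept for 4 to 5 passages on plates coated with collagen, in HAM's F10 with 2.5 ng/µl bFGF and 10% horse serum. No genetic change is named for any group, the labels give no age for the sorted MuSCs, and the muscles differ between the injured cells and the whole hindlimb of total muscle.

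Collagens are proteins of several chains wound into a triple helix, and each chain has its own gene. Fibrillar collagens (types I, II, III, V, XI, XXIV and XXVII) form the fibres of tendon and connective tissue, whereas type IV forms the sheet-like network of basement membranes that wraps myofibres, satellite cells, capillaries and nerves. Type VI builds beaded microfibrils next to the basement membrane, and mutations in its genes cause congenital muscle disease. Fibril-associated collagens (types IX, XII, XIV, XVI, XIX, XX and XXII) sit on fibrils, multiplexins (types XV and XVIII) anchor basement membranes, short-chain collagens (type VIII) form open networks, and transmembrane collagens (types XIII, XVII, XXIII and XXV) are cell-surface proteins.

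Some collagen genes lie side by side in the genome, and the start regions of 4 members are shown because their RNA levels set the main contrasts among the myogenic cells. Col4a1 (ENSMUSG00000031502; minus strand, chr8:11198423-11312826) and Col4a2 (ENSMUSG00000031503; plus strand, chr8:11312805-11449287) lie head to head and overlap by 22 bases in the GENCODE M21 annotation of mm10, so their start regions overlap. Col1a2 (chr6:4504814-4541544, plus strand) and Col8a1 (chr16:57624258-57754737, minus strand) were higher in injured than in homeostatic MuSCs, whereas Col4a1 and Col4a2 were lower. Each sequence runs 5′ to 3′ on the gene's strand, from 250 bases before to 50 bases after the start given by RefSeq (build GRCm38.p6). Capitals mark the letters CCAAT on the strand shown, or ATTGG, which is CCAAT on the other strand.
Col4a1 (chr8:11312777-11313076, minus strand): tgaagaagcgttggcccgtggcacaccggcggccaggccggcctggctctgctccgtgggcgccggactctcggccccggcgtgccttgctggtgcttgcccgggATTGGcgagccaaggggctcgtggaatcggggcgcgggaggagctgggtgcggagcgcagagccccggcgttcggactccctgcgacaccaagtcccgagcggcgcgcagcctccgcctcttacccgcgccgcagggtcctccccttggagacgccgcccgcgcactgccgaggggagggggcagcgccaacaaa
Col4a2 (chr8:11312555-11312854, plus strand): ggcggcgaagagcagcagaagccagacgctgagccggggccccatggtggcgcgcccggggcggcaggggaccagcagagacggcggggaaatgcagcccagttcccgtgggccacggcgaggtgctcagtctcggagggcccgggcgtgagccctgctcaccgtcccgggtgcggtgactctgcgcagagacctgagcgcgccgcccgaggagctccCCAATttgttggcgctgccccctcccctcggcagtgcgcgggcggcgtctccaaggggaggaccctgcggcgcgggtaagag
Col1a2 (chr6:4505368-4505667, plus strand): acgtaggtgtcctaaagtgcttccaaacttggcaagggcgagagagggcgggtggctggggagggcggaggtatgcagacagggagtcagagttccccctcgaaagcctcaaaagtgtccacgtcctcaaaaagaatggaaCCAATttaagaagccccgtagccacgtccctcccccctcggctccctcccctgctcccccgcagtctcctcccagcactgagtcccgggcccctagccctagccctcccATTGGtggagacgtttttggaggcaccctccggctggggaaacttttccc
Col8a1 (chr16:57754688-57754987, minus strand): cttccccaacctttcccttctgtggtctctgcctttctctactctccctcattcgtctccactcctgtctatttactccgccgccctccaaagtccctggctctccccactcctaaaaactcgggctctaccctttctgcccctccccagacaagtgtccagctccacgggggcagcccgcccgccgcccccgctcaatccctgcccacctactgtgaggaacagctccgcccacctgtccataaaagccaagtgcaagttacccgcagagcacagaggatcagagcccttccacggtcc
The Col4a1 and Col4a2 stretches share 78 bases, read on opposite strands. The match begins at -145 from the start of Col4a1, at -32 from that of Col4a2, and at -109 and 0 in Col1a2, with none in the Col8a1 stretch. RefSeq's table matched 32 of the 41 members, with 34 start regions. CCAAT or ATTGG stood in 32.4% of these 34 and in 37.4% of all 32851 mouse start regions of this length. The letters TATAAA, or TTTATA on the other strand, were in 11.8% and 13.6%, and in none of the 4 shown. GGGCGG, or CCGCCC on the other strand, stood in 64.7% of the collagen start regions and 35.7% of all, with 1 match in the Col4a1 stretch, 3 in Col4a2, 2 in Col1a2 and 4 in Col8a1, none of which overlaps a CCAAT or ATTGG. G and C made up 74% of the Col4a1, 73.7% of the Col4a2, 61% of the Col1a2 and 60.3% of the Col8a1 stretch, and the part of base composition in the GGGCGG share was not tested. A match is a run of letters and says nothing on the factors that bind there.

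The libraries held 1295 to 4429 cell barcodes, with medians of 2245 to 7196 UMIs per barcode for tissue and 24779 for the primary myoblasts. Each cell of total muscle was placed in the type whose marker list it matched best. Cells whose second-best list scored at least 50% of the best (146 and 167 cells in total muscle 1 and 2) were left out as mixed, since they can be doublets, and no doublet caller was run. The labels name no separate animals behind the libraries, so p-values measure only the spread between these libraries, which may be technical. Free RNA in droplets gives every cell some collagen UMIs, and B cells, which make no matrix, serve here as its measure. Injured MuSC 1 and 2 shared 253 barcodes, against 1 to 16 for any other pair of libraries, and 221 and 81 of their myogenic cells carried such a barcode. In the sorted and cultured libraries 69.6% to 96.7% of cells were gated as myogenic. Among the markers that set the gates, Tnmd, a tendon membrane protein, was at 2383 and 2481 CPM (UMIs scaled to the summed UMIs of the same cells) in the tenocytes of total muscle 1 and 2 and at 29.7 and 15.4 CPM in fibro-adipogenic progenitors (FAPs), and Pdgfra, the receptor that marks FAPs, at 176 and 221 CPM in FAPs and 5.09 and 12.1 CPM in tenocytes. Dcn, also on the FAP list, did not part the types, at 19470 and 19661 CPM in FAPs and 20182 and 17504 CPM in tenocytes. The whole FAP list summed to 75453 and 75048 CPM in FAPs and 27011 and 24656 CPM in tenocytes. The tenocyte list summed to 32086 and 30509 CPM in tenocytes and 599 and 398 CPM in FAPs.

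Among the cells given a type, the collagen share of all UMIs was highest in the connective tissue cells of muscle. In tenocytes, the cells of tendon (69 and 89 cells in total muscle 1 and 2), collagens made up 2.52% and 2.00% of all UMIs, and in FAPs, the connective tissue progenitors between myofibres (563 and 712 cells), 0.934% and 0.895%. Glial cells, which ensheath nerves (18 and 22 cells), gave 0.301% and 0.219%, mural cells, which wrap small vessels (36 and 42 cells), 0.205% and 0.227%, and endothelial cells, which line them (401 and 495 cells), 0.0952% and 0.0983%. Myogenic cells (88 and 120 cells) gave 0.0597% and 0.0473% and B cells (299 and 359 cells) 0.0168% and 0.0148%. The cells left out as mixed held 13764 and 14707 collagen UMIs, 1.504% and 1.472% of their UMIs, which is more UMIs than the 9916 and 9924 of the tenocytes, and they made up 48.1% of the cluster with tenocyte markers. In the order of the named types, the libraries of glial and mural cells overlapped and those of no other pair of neighbours did. Since each RNA is counted once at its 3' end, no division by gene length was made, and levels of different genes are compared as CPM.

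The kind of collagen differed between the types as well. Of all collagen UMIs in total muscle 1 and 2, fibrillar chains took 87.8% and 86.4% in tenocytes, 67.9% and 67.2% in FAPs, 30.1% and 27.8% in mural cells and 12.7% and 11.3% in endothelial cells. Chains of the basement membrane network took 71.9% and 74.6% in endothelial cells, 48.5% and 50.4% in mural cells, 7.81% and 7.85% in FAPs and 0.837% and 1.53% in tenocytes. The order of these 4 types was reversed between the fibrillar and basement membrane families. Beaded filament chains took 17.3% and 18.1% in FAPs and 4.83% and 5.65% in tenocytes, and fibril-associated chains took 31.6% and 25.3% in glial cells.

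**Figure D1:**
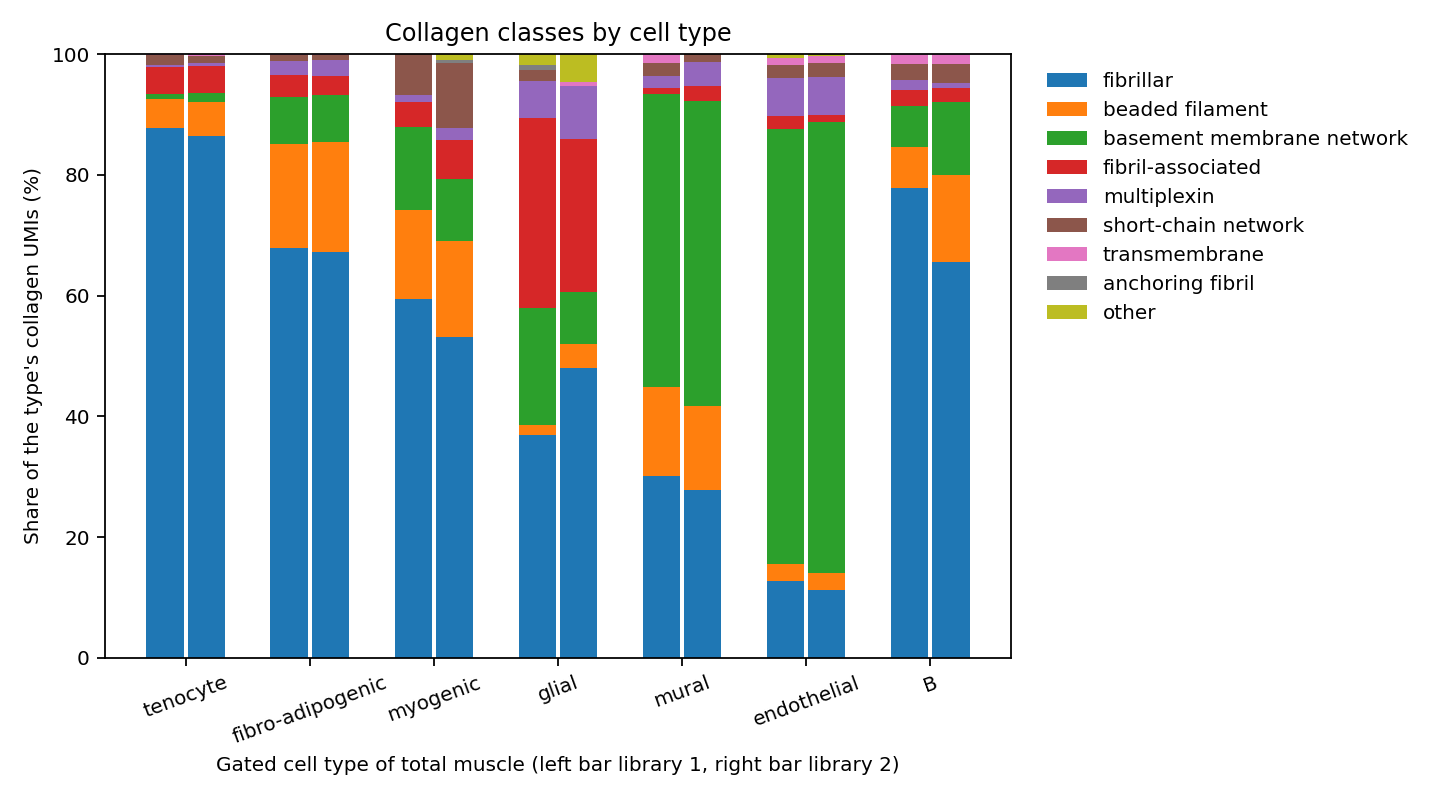
Share of a cell type's collagen UMIs taken by each collagen family (vertical axis, percent) in 7 cell types of total muscle (horizontal axis), with 1 stacked bar per library. Fibrillar chains make up 87.8% and 86.4% of the tenocyte bars, and basement membrane chains 71.9% and 74.6% of the endothelial bars.

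Of the 41 collagens, 27 reached 20 CPM in both libraries of at least 1 cell type of total muscle, and each of these was highest in 1 of 4 types. For none of the 27 did the libraries of the highest and the next type overlap. The highest type was picked from these same values, and the share of all genes without overlap was not counted. The highest type was the tenocyte for 12 (Col1a1, Col1a2, Col2a1, Col5a2, Col8a1, Col8a2, Col11a1, Col11a2, Col12a1, Col13a1, Col16a1 and Col22a1). It was the FAP for 8 (Col3a1, Col5a1, Col5a3, Col6a1, Col6a2, Col6a3, Col14a1 and Col15a1). Glial cells were highest for 5 (Col9a3, Col18a1, Col20a1, Col27a1 and Col28a1), and mural cells for Col4a1 and Col4a2. In glial cells Col9a3 stood at 26.4 and 43.8 CPM on 4 UMIs, beside 25.4 and 14.5 CPM in epithelial cells. Col27a1 rested on 6 and Col28a1 on 9 glial UMIs. None of the 27 was highest in endothelial cells, although Col4a1 and Col4a2 lead the collagens of that type.

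**Figure D2:**
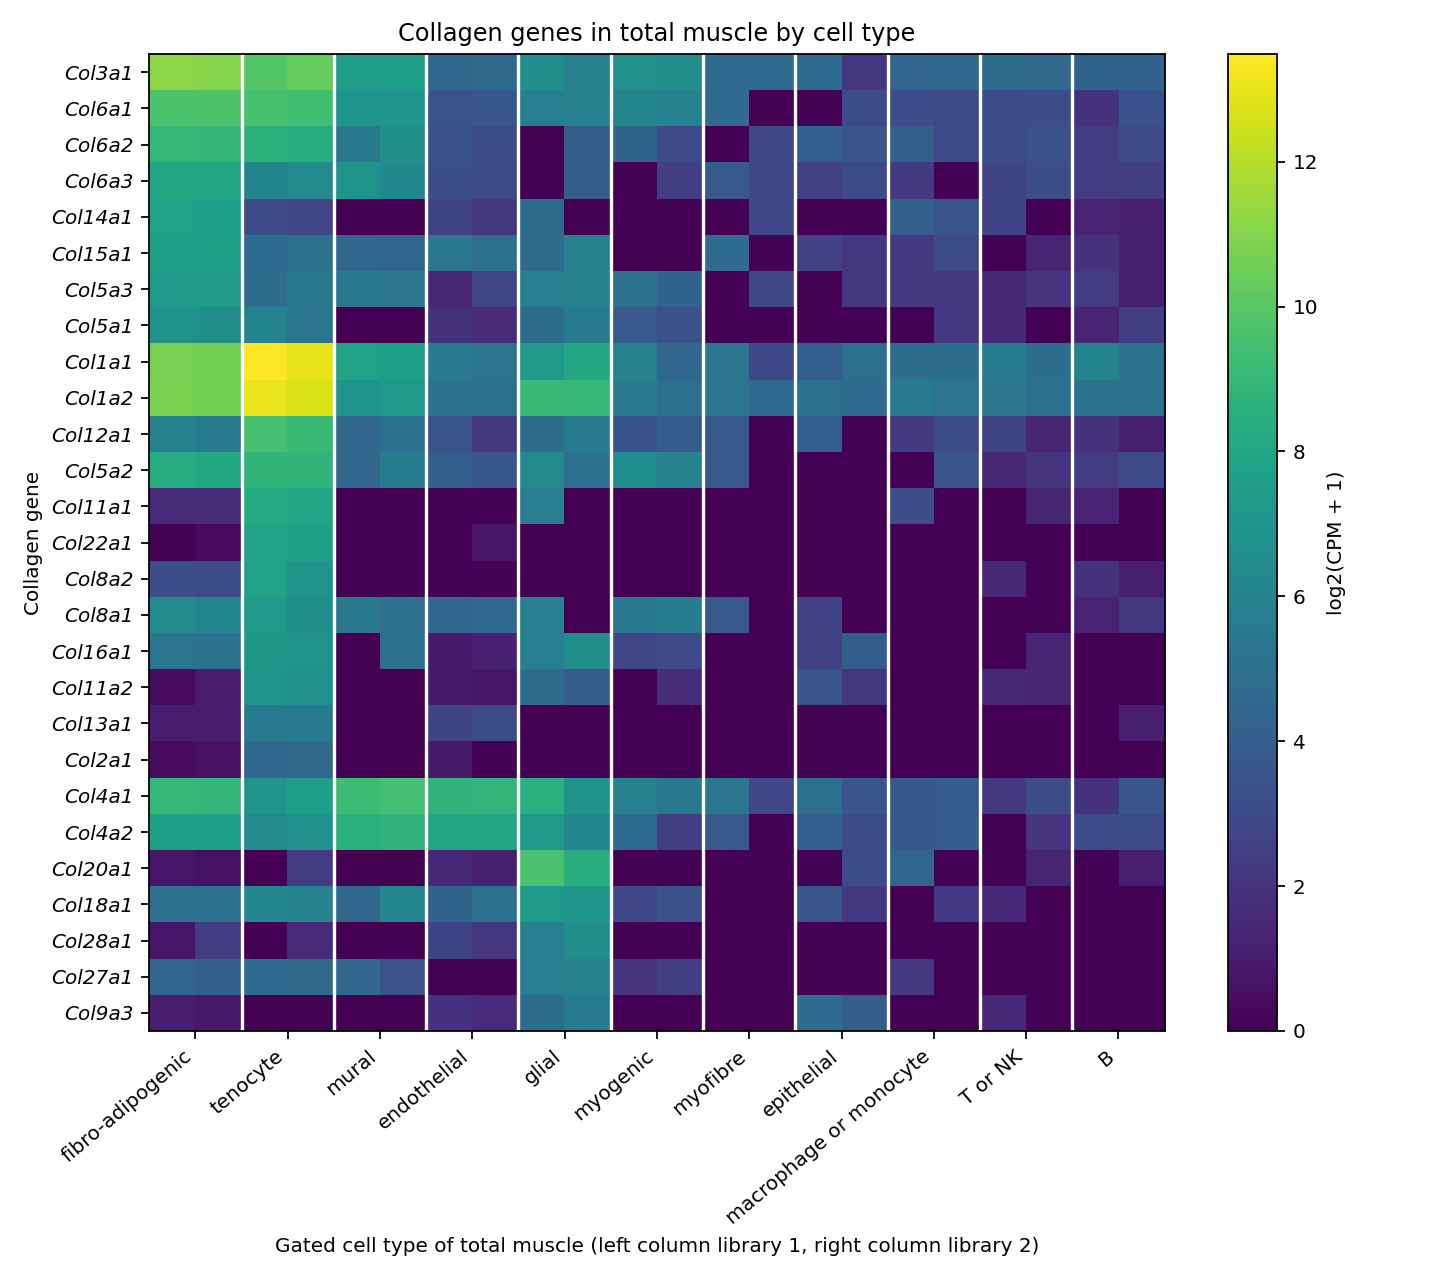
Level of the 27 collagens that reached 20 CPM (vertical axis) in the cell types of total muscle (horizontal axis), as log2 of the CPM plus 1, with 1 column per library and brighter colours for higher levels. The brightest cells are Col1a1 and Col1a2 in tenocytes, Col4a1 and Col4a2 are bright in mural, endothelial and fibro-adipogenic cells, Col20a1 stands out in glial cells, and most genes are dark in B, T or NK cells and macrophages.

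Against B cells, 25 of the 41 collagens passed the filter on low counts, and FAPs and tenocytes were higher for most of these (edgeR's quasi-likelihood test, adjusted p under 0.05). None was lower, also by DESeq2 and at an unadjusted p under 0.05. B cells, chosen as the background, held few or no UMIs of many of these genes, which left little room for a lower call. These comparisons share their B cells. The filter took the sums of all types together, so a collagen high in 1 type could pass through that type and then be called higher there. In FAPs 19 were higher, where 34.4% of all genes tested were, and in tenocytes 22, where 27.0% of all genes were. The median log2 difference of the tested collagens was 5.95 in FAPs and 6.10 in tenocytes, or 5.13 and 5.91 with genes without UMIs in 1 type at the bound of 3 counts over both libraries. The median over all genes was 0.15 in FAPs and -0.00023 in tenocytes. Col1a1 was detected in 98.6% and 97.8% of tenocytes and 90.4% and 90.3% of FAPs, but also in 13.7% and 6.69% of B cells, with 67.3 and 33.1 CPM there. The median depth was 4700 and 5342 UMIs in tenocytes, 5027 and 5048 in FAPs and 2157 and 2171 in B cells. Levels of Col1a1, Col1a2 and Col3a1 below about those of the B cells are therefore read here as background.

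Type I collagen, the main fibre protein of tendon, led the tenocytes. Col1a1, the alpha 1 chain, stood at 11458 and 8453 CPM in the tenocytes of total muscle 1 and 2 and at 1705 and 1652 CPM in the FAPs, a difference of log2 2.37 ± 0.18 (SE; edgeR adjusted p = 1.72e-29). Col1a2, the alpha 2 chain, stood at 8724 and 6656 CPM in tenocytes and 1770.0 and 1647 CPM in FAPs (log2 1.99 ± 0.18, edgeR adjusted p = 6.61e-23). Both libraries of tenocytes lay above both of FAPs, which is largely built in for genes called from these same libraries. Type III ran the other way: Col3a1, a partner of type I in soft connective tissue, was at 942 and 1247 CPM in tenocytes and 2237 and 2128 CPM in FAPs (log2 -1.17 ± 0.19, edgeR adjusted p = 4.44e-08). The ratio of Col3a1 to Col1a1 UMIs was 0.0822 and 0.147 in tenocytes and 1.31 and 1.29 in FAPs, so that FAPs held more Col3a1 than Col1a1 and tenocytes far less. The ratio of Col1a1 to Col1a2, whose chains form type I together, was 1.31 and 1.27 in tenocytes and 0.963 and 1.0029 in FAPs.

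Between tenocytes and FAPs, 12 of the 25 tested collagens were higher in tenocytes, where 6.91% of all genes were, and 10 were lower, where 11.4% were. Collagens high mainly in tenocytes, such as Col22a1, Col11a2 and Col13a1, could pass the filter through the tenocytes and then count as higher there. The median difference was log2 0.37 for the tested collagens and -0.14 for all genes. Of the minor fibrillar chains, Col11a1, which starts fibrils together with type V, was at 313 and 248 CPM in tenocytes and 2.00 and 2.13 CPM in FAPs (log2 6.78 ± 0.28, edgeR adjusted p = 1.2e-71). Col11a2, its partner chain, was at 127 and 109 against 0.334 and 1.06 CPM. Of the 2 types, tenocytes thus held nearly all Col11a1 and Col11a2. Col2a1, the chain of cartilage fibrils, was at 22.9 and 24.2 CPM in tenocytes and rested on 21 UMIs there against 3 in FAPs. Type V split by chain: Col5a2 was at 451 and 448 CPM in tenocytes and 327 and 294 CPM in FAPs (log2 0.37 ± 0.13, edgeR adjusted p = 0.0401), whereas Col5a1 was at 66.2 and 36.3 against 118 and 103 CPM (log2 -1.31 ± 0.24) and Col5a3 at 28.0 and 42.4 against 159 and 174 CPM (log2 -2.39 ± 0.25). The Col5a2 call was lost in DESeq2 and 4 other alternatives. DESeq2 also did not call Col11a1, at log2 6.92.

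Fibril-associated collagens divided the pair sharply. Col22a1, known from the myotendinous junction, was at 232 and 208 CPM in tenocytes, on 194 UMIs, and at 0 and 0.266 CPM in FAPs, on 1 UMI. That is a ratio of 1475 by its counts (95% interval 262 to 58566), and DESeq2 did not call it. Col12a1, which binds type I fibrils, was at 728 and 563 CPM in tenocytes and 57.8 and 48.6 CPM in FAPs (log2 3.42 ± 0.15, edgeR adjusted p = 1.13e-65). Its close relative Col14a1 was the reverse, with 7.64 and 6.05 CPM in tenocytes and 221 and 197 CPM in FAPs (log2 -5.08 ± 0.35, edgeR adjusted p = 2.76e-34). These related genes were thus highest in opposite types. Col16a1 was higher in tenocytes, at 138 and 123 against 37.4 and 31.4 CPM (log2 1.75 ± 0.22).

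The remaining families followed no single direction. Among short-chain collagens, Col8a2 was at 216 and 127 CPM in tenocytes and 8.35 and 7.18 CPM in FAPs (log2 4.22 ± 0.30, not called by DESeq2), and Col8a1 at 163 and 105 against 90.9 and 73.1 CPM (log2 0.52 ± 0.20), a call lost in DESeq2, without the filter on low counts, without the block and, at log2 0.37, with mixed cells kept. Col13a1, a transmembrane collagen, was at 48.4 and 46.4 CPM in tenocytes and 1.0021 and 1.06 CPM in FAPs (log2 5.13 ± 0.62). The multiplexins parted, with Col15a1 at 25.5 and 30.3 CPM in tenocytes and 194 and 201 CPM in FAPs (log2 -2.98 ± 0.26), and Col18a1 higher in tenocytes (log2 0.97 ± 0.26; 0.58, and no longer called, with mixed cells kept). Basement membrane chains were lower in tenocytes: Col4a1 was at 125 and 194 against 500.05 and 483 CPM (log2 -1.77 ± 0.16), and Col4a2 at 81.5 and 113 against 196 and 188 CPM (log2 -1.13 ± 0.19). In each of these comparisons the libraries of tenocytes and FAPs did not overlap, which is largely built in for called genes. The share of all genes without overlap was not counted.

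**Figure D3:**
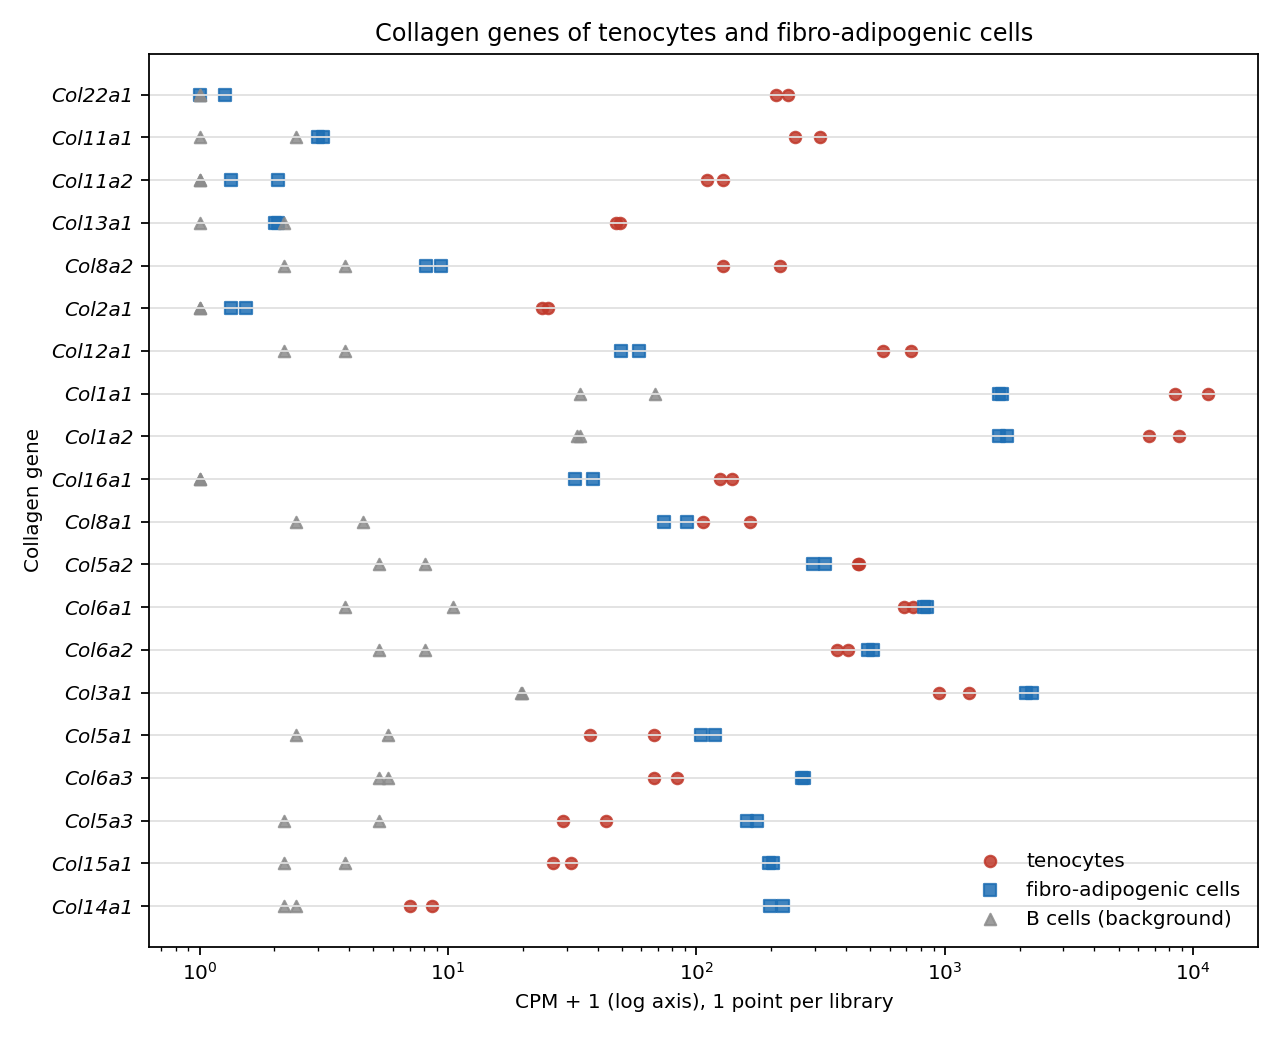
Level of 20 collagens (vertical axis) in tenocytes, fibro-adipogenic cells and B cells of total muscle, as CPM plus 1 on a log axis, with 1 point per library and the genes ordered from most tenocyte-high to most FAP-high. The tenocyte points lie right of the fibro-adipogenic points from Col22a1 to Col5a2 and left of them from Col6a1 to Col14a1, and B cells lie below both types except for Col22a1 and Col13a1, where they meet the fibro-adipogenic points.

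Type VI collagen was shared by both types, with a different balance of its chains. Col6a1 was at 825 and 845 CPM in FAPs and 746 and 682 CPM in tenocytes (log2 -0.40 ± 0.12 for tenocytes), and Col6a2 at 510.4 and 489 against 407 and 367 CPM (log2 -0.54 ± 0.13). Both were called, and both calls were lost in DESeq2 and with cells thinned to 1000 UMIs, that of Col6a1 in 4 more alternatives. Col6a3, which completes the classic type VI trimer, was at 265 and 270.0 CPM in FAPs and 66.2 and 82.7 CPM in tenocytes (log2 -2.002 ± 0.20, edgeR adjusted p = 1.62e-19). The ratio of Col6a3 to Col6a1 UMIs was 0.321 and 0.320 in FAPs, 0.0887 and 0.121 in tenocytes and 0.923 and 0.615 in mural cells, and that of Col6a1 to Col6a2 was 1.62 and 1.73 in FAPs and 1.83 and 1.86 in tenocytes. Chains that can stand in for Col6a3 were scarce: Col6a6 had 107 UMIs in total muscle, 105 of them in FAPs, and Col6a5 13, of which 12 were in FAPs.

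Within the FAPs, 2 known subsets were set apart by markers that are not collagens: the Pi16 and Dpp4 subset (108 and 150 cells in total muscle 1 and 2) and the Smoc2 and Cxcl14 subset (309 and 416 cells). Col14a1 was the only tested collagen called higher in the Pi16 subset, where 5.19% of all genes were, with 449.8 and 414 CPM there and 139.7 and 86.0 CPM in the Smoc2 subset (log2 1.78 ± 0.15, edgeR adjusted p = 1.17e-17). Of 25 tested, 13 were lower in the Pi16 subset, where 9.85% of all genes were, and the median difference was log2 -0.71 (-0.63 at the bounds) beside -0.06 for all genes. Col15a1 was at 17.8 and 27.8 CPM in the Pi16 subset and 306 and 307 CPM in the Smoc2 subset (log2 -3.87 ± 0.22, edgeR adjusted p = 5.32e-27). The other collagens of basement membranes went with it. Col18a1 was at 8.09 and 5.79 against 47.7 and 48.2 CPM (log2 -2.97 ± 0.42), Col4a1 at 217 and 198 against 647 and 656 CPM (log2 -1.85 ± 0.14) and Col4a2 at 58.2 and 77.6 against 272 and 245 CPM (log2 -2.09 ± 0.18), each time with the Pi16 subset named first. Col6a3 was at 134 and 162 against 337 and 314 CPM (log2 -1.31 ± 0.14). Type III did not differ detectably, with 2034 and 2134 against 2333 and 2023 CPM (log2 -0.25 ± 0.17, edgeR adjusted p = 0.4). The subsets did not overlap in Col14a1, Col15a1, Col18a1, Col4a1, Col4a2 or Col6a3, all of them called genes, for which this is largely built in. Without scaling beyond the total count, 18.2% of the collagen calls were higher in the Pi16 subset, against 7.14% with it. Calls for Col1a1, Col5a2, Col5a3, Col6a1, Col6a2, Col8a2 and Col27a1, all lower in the Pi16 subset, were each lost in at least 1 alternative.

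In vessels, type IV collagen led. Endothelial cells held Col4a1 at 438 and 477 CPM and Col4a2 at 245 and 255 CPM, and mural cells held them at 595 and 700.1 against 376 and 434 CPM. Against B cells Col4a1 was higher by log2 6.10 ± 0.26 in endothelial cells (edgeR adjusted p = 7.06e-68) and by 6.28 ± 0.34 in mural cells. The difference between mural and endothelial cells, log2 0.18 ± 0.18 for Col4a1 and 0.38 ± 0.22 for Col4a2, was not called (edgeR adjusted p = 0.558 and 0.241). Of the 25 tested collagens, 8 were higher in endothelial than in B cells, where 31.9% of all genes were, so the share was about that of all genes. In mural cells 16 were higher, where 19.1% of all genes were. None was called lower by edgeR or DESeq2 in either type, and 1, in endothelial cells, had an unadjusted p under 0.05 on the lower side. As for FAPs and tenocytes, the low B cell counts left little room for a lower call.

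Mural cells differed from endothelial cells in interstitial collagens. Of the 25 tested, 8 were higher in mural cells, where 7.38% of all genes were, and the median difference was log2 0.38 (0.33 at the bounds) beside -0.39 for all genes. Col3a1 was at 188 and 187 CPM in mural and 22.4 and 24.3 CPM in endothelial cells (log2 2.67 ± 0.38, edgeR adjusted p = 6.33e-10). Col6a1 was at 136 and 128 against 10.3 and 11.5 CPM (log2 3.25 ± 0.47, edgeR adjusted p = 8.79e-10), and Col6a3 at 125 and 78.9 against 8.42 and 7.41 CPM (log2 3.35 ± 0.55, edgeR adjusted p = 8.42e-08). The endothelial values lay close to those of B cells, where Col3a1 stood at 18.6 and 18.9 CPM and Col6a1 at 2.86 and 9.46 CPM in B cells. Markers of FAPs summed to 1242 and 1282 CPM in mural cells, 927 and 1006 CPM in endothelial cells and 1078 and 1073 CPM in B cells, against 75453 and 75048 CPM in FAPs. Their part in the mural values was not tested. The calls of Col27a1 and Col5a3, also higher in mural cells, were each lost in 1 alternative. Among 22 and 29 pericytes, Col4a1 was at 742 and 854 CPM, and among 8 and 7 smooth muscle cells at 245 and 279.6 CPM, from too few cells for a test.

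Endothelial cells of venules (23 and 41 cells) and of capillaries (335 and 393 cells) differed in the balance of their basement membrane collagens. In both subsets and both libraries Col4a1 was the leading collagen. Col4a1 was at 205 and 213 CPM in venular and 482 and 543 CPM in capillary cells (log2 -1.45 ± 0.21, edgeR adjusted p = 2.75e-08), and Col4a2 at 47.4 and 90.7 against 295 and 298 CPM (log2 -2.17 ± 0.29). The multiplexins went the other way. Col18a1, the source of endostatin, was at 79.0 and 74.7 CPM in venular and 6.32 and 7.95 CPM in capillary cells (log2 3.20 ± 0.54, edgeR adjusted p = 2.05e-06), and Col15a1 at 150.0 and 42.7 against 21.5 and 11.9 CPM (log2 2.24 ± 0.46). Venular and capillary libraries did not overlap in any of these 4 genes, which is largely built in because they were called from the same libraries. Col5a2 was the only other call, lost with thinned cells, at 47.4 and 53.4 against 11.4 and 3.98 CPM (log2 2.62 ± 0.58). Of 25 tested collagens, 3 were higher in venular cells, where 6.95% of all genes were, and 2 lower, where 9.81% were. Venular UMIs were few: 10 and 14 for Col18a1 and 19 and 8 for Col15a1 in total muscle 1 and 2.

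**Figure D4:**
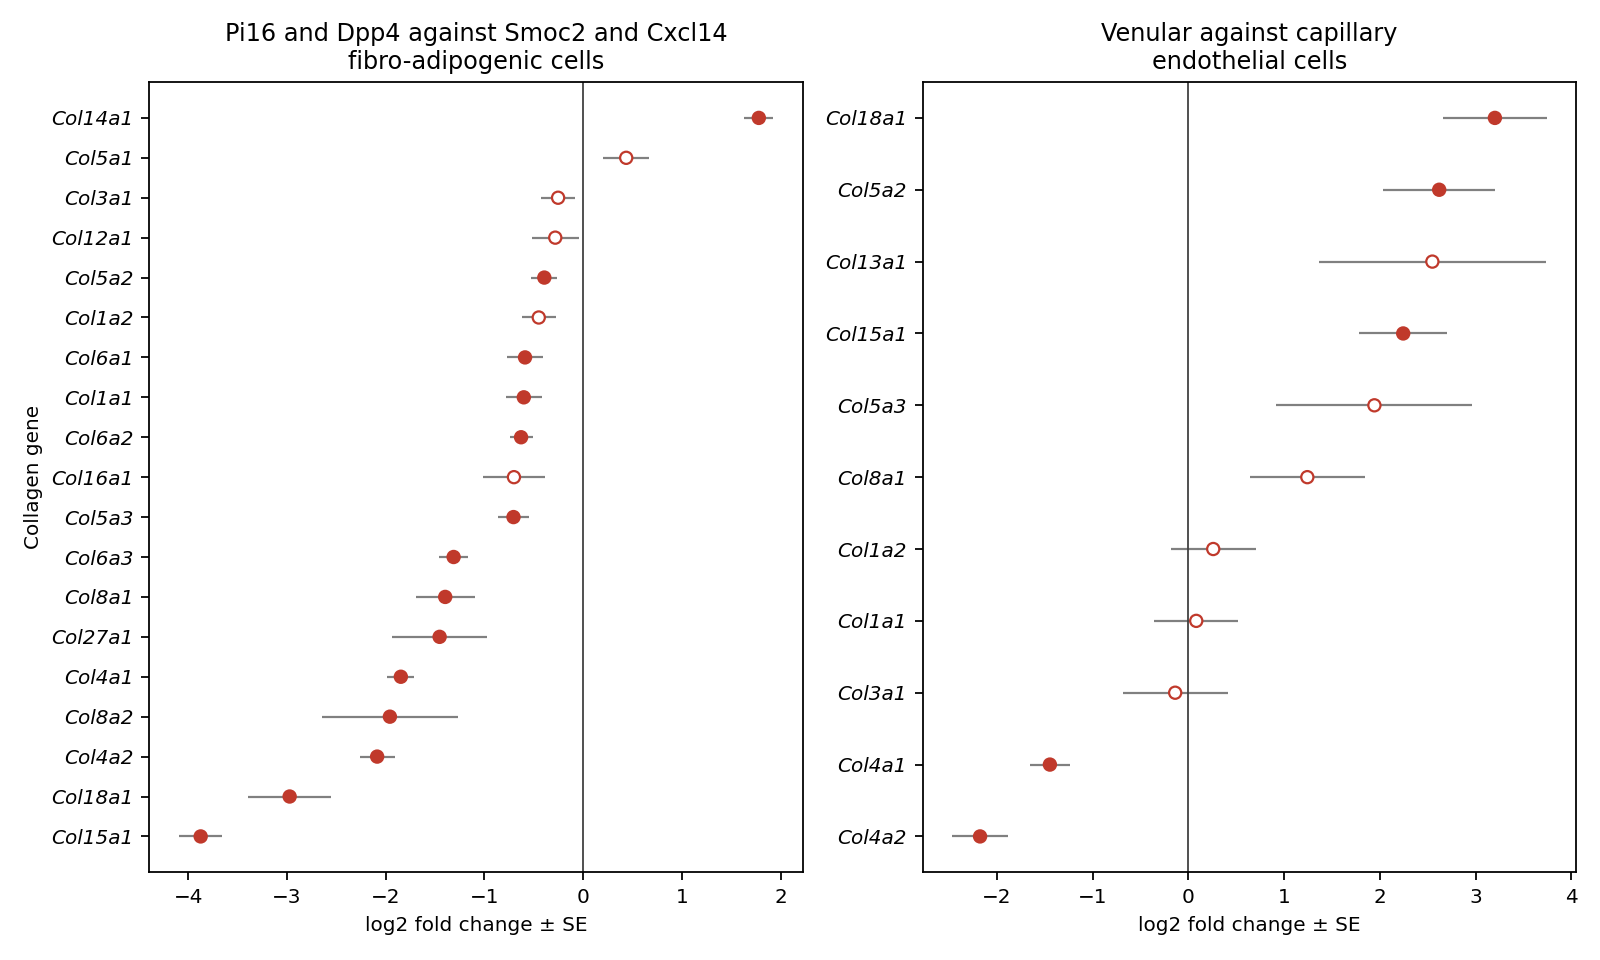
Difference (log2 fold change ± SE, horizontal axes) of each collagen with more than 3 UMIs in both subsets (vertical axes), for the Pi16 against the Smoc2 subset of fibro-adipogenic cells and for venular against capillary endothelial cells, with filled points for an edgeR adjusted p under 0.05. Col14a1 at 1.78 and Col15a1 at -3.87 are the ends of the first panel, and Col18a1 at 3.20 and Col4a2 at -2.17 those of the second.

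Glial cells were highest for several collagens, on few cells. Col20a1, a fibril-associated collagen, was at 793 and 365 CPM (55 UMIs), seen in 33.3% and 13.6% of glial cells and 0% and 0.279% of B cells, against 0.668 and 0.532 CPM in FAPs (log2 8.59 ± 0.61, edgeR adjusted p = 4.95e-33) and 0 and 1.18 CPM in B cells. Both glial libraries lay above all other types. Col28a1, known from peripheral nerve, was at 52.9 and 102 CPM on 9 UMIs, against 0.668 and 3.99 CPM in FAPs (log2 4.12 ± 1.002, edgeR adjusted p = 0.000565; not called by DESeq2). Col18a1 was at 159 and 131 CPM in glial cells and 31.1 and 31.1 CPM in FAPs (log2 1.31 ± 0.49, edgeR adjusted p = 0.0412), and that call was lost without the filter on low counts and with mixed cells kept. These 3 of 25 were higher than in FAPs, where 4.81% of all genes were, and 14 were lower, where 14.3% were. Col20a1 and Col28a1, low in the other types, could pass the filter through the glial cells and then count as higher there. The median difference was log2 -2.43 (-2.10 at the bounds), while that of all genes was -0.61, and 0.20 without scaling beyond the total count. Among the lower ones, calls of Col4a2, Col5a1, Col5a3, Col8a1 and Col15a1 were each lost in at least 1 alternative, and Col8a1 turned to log2 0.71 with clusters in place of gates. The cluster named glial held 148 cells over all libraries, and its largest part, 42.6%, was gated as FAPs.

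Against B cells, 15 of the 25 tested collagens were higher in glial cells, where 13.4% of all genes were, with a median difference of log2 3.24 (2.89 at the bounds). Col1a2 was at 555 and 510.4 CPM in glial cells (log2 3.44 ± 0.33, edgeR adjusted p = 1.97e-20), while Col1a1 stood at 159 and 277 CPM. Col4a1 was at 370.0 and 117 CPM and Col27a1, a minor fibrillar collagen, at 52.9 and 58.3 CPM. Markers of FAPs reached 2008 and 5192 CPM in the glial cells, with 8 and 11 of the 12 list members present, against 1078 and 1073 CPM in B cells. Pdgfra was at 0 in both glial libraries, Dcn at 132 and 2377 CPM, and the part of FAP RNA in these values was not tested. Median depth was 1991 and 2029.5 UMIs in glial cells, below that of FAPs. The Col6a1 difference turned to log2 -3.59 with cells thinned to 1000 UMIs.

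Immune, epithelial and muscle fibre cells held Col1a2 near the level of the B cells. Of 25 tested collagens none was called in T or NK cells against B cells by edgeR or DESeq2, where 10.2% of all genes were higher, and none had an unadjusted p under 0.05. In macrophages or monocytes 2 were called higher, a share below the 18.3% of all genes: Col14a1 at 15.9 and 10.7 CPM on 7 UMIs, and Col20a1 at 19.9 and 0 CPM, on 5 UMIs of total muscle 1. The Col20a1 call was lost without scaling, by DESeq2 and with thinned cells, and the difference turned to log2 -2.14 with clusters in place of gates. Myofibre cells had 37.6 and 25.4 CPM of Col1a2 and epithelial cells 30.5 and 25.3 CPM, beside 32.9 and 31.9 CPM in B cells, and dendritic cells, with 12 in each library, 41.6 and 38.3 CPM.

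Of the 13 collagens that did not reach 20 CPM in every library of any type or group, 4 are type IV chains of specialised basement membranes. Col4a5 had 126 UMIs in total muscle, Col4a4 81, Col4a3 47 and Col4a6 7. FAPs held 111 of the Col4a5, 66 of the Col4a4 and 41 of the Col4a3 UMIs, and Col4a5 was at least 8.45-fold higher in FAPs than in B cells, which had none, and at least 4.87-fold higher than in tenocytes. Col4a3 and Col4a4 lie head to head with 71 bases between them on chromosome 1, and Col4a5 and Col4a6 with 1308 bases on chromosome X. Within total muscle, both members of the first pair were seen mainly in FAPs. FAPs held 2993712 of all 7853341 UMIs in total muscle 1 and 3762866 of 9835824 in total muscle 2. Elsewhere the first pair parted. Col4a3 had no UMI in any sorted or cultured library, while Col4a4 had 158 among the primary myoblasts and 9 to 17 per sorted library. Of the second pair, Col4a6 was hardly seen where Col4a5 was. Of the others, Col6a6 (107 UMIs), Col9a2 (60), Col23a1 (36), Col6a5 (13), Col7a1 (13), Col17a1 (12), Col26a1 (8), Col25a1 (7) and Col24a1 (4) were not placed by type beyond the Col6a5 and Col6a6 counts given above.

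Myogenic cells of total muscle, mostly satellite cells, carried few collagens above background. Of 25 tested, 9 were higher than in B cells, where 22.2% of all genes were, and the median difference was log2 1.05 (0.24 at the bounds). Col3a1 was at 107 and 100.1 CPM (log2 2.47 ± 0.35, edgeR adjusted p = 1.7e-10), Col5a2 at 94.3 and 65.2 CPM (log2 3.72 ± 0.46, edgeR adjusted p = 1.65e-13) and Col6a1 at 69.2 and 62.9 CPM (log2 3.32 ± 0.46, edgeR adjusted p = 3.12e-11). Col8a1 was at 40.9 and 51.2 CPM and Col4a1 at 56.6 and 41.9 CPM. Col5a3, Col12a1, Col16a1 and Col18a1 were also called, Col16a1 on 5 and Col18a1 on 6 UMIs, and the Col16a1 call was lost with thinned cells. Col1a1, at 59.7 and 21.0 CPM, and Col1a2, at 47.2 and 30.3 CPM, did not differ detectably from their B cell levels (log2 -0.34 ± 0.35 and 0.24 ± 0.37, edgeR adjusted p = 0.451 and 0.639). Markers of FAPs summed to 1626 and 1690.2 CPM in these cells, above the 1078 and 1073 CPM of B cells, and their part in the collagen values was not tested.

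The myogenic cells of the sorted and cultured groups numbered 1349 and 1167 for the homeostatic libraries 1 and 2, 1102 and 1541 for the injured libraries 1 and 2, and 4267 for the primary myoblasts. Collagens made up 0.0875% and 0.0748% of their UMIs in the homeostatic libraries, 0.0179% and 0.0206% in the injured ones and 0.0343% in the myoblasts. The groups did not overlap. In the homeostatic cells Col3a1 and Col4a1 were the most abundant, and Col15a1 and Col19a1, a fibril-associated collagen of basement membrane zones, stood above their levels in every library of the other groups.

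Homeostatic sorted MuSCs were compared with the myogenic cells of total muscle, which were sorted as live cells only. Of 17 collagens tested, 3 were higher in the sorted cells, where 4.48% of all genes were, and 3 lower, where 4.20% were, with a median of log2 0.71 beside 0.04 for all genes. Col4a1 was at 167 and 141 CPM in homeostatic MuSC 1 and 2 against 56.6 and 41.9 CPM in total muscle 1 and 2 (log2 1.58 ± 0.25, edgeR adjusted p = 0.000205), and Col3a1 at 248 and 223 against 107 and 100.1 CPM (log2 1.10 ± 0.19, edgeR adjusted p = 0.000596). Col15a1 was at 41.7 and 32.5 CPM, on 236 UMIs, in the sorted cells and had no UMI in the 88 and 120 myogenic cells of total muscle, so it was at least 9.31-fold higher. Lower in the sorted cells were Col8a1, at 3.60 and 7.71 against 40.9 and 51.2 CPM (log2 -3.14 ± 0.44), Col1a2, at 6.00 and 7.71 against 47.2 and 30.3 CPM (log2 -2.55 ± 0.43), and Col1a1, at 10.5 and 3.02 against 59.7 and 21.0 CPM (log2 -2.54 ± 0.56). The groups did not overlap in any of the 6, which is largely built in for genes called from these same libraries and is no further support. The share of all genes without overlap was not counted. The total muscle levels of Col1a1 and Col1a2 are those that did not differ detectably from B cells. FAP markers summed to 894 and 899 CPM in the sorted and 1626 and 1690.2 CPM in the total muscle cells, and their part in these differences was not tested. With cells thinned to 1000 UMIs the Col8a1 difference was log2 -1.87 and no longer called, and 1 cell held 30.8% and 36.4% of the Col8a1 UMIs in the myogenic cells of total muscle 1 and 2. Without total muscle 1 the Col1a1 difference was log2 -1.68 and no longer called. It was -3.18 without total muscle 2, and with the first or the second homeostatic library left out it was -3.72 or -1.89.

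In the homeostatic libraries the type I chains came mainly from cells outside the myogenic gate. In homeostatic MuSC 1, 3 tenocytes held 32.4% and 11 mixed cells 43.4% of all Col1a1 UMIs, and the 1349 myogenic cells 13.7%. In homeostatic MuSC 2, 4 tenocytes held 46.8%, 6 FAPs 21.1% and 9 mixed cells 26.3%. Col4a1 was different, with 87.6% and 79.7% of its UMIs in myogenic cells. With all filtered cells of the sorted libraries in place of the gated ones, Col1a2 and Col1a1 turned to log2 0.56 and 0.64 in the sort comparison. The sign of both type I differences thus depended on whether cells outside the gate were counted. In injured MuSC 1 and 2 the chains parted: myogenic cells held 65.4% and 54.5% of the Col1a2 UMIs and 1.55% and 20.8% of the Col1a1 UMIs.

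After injury most collagens fell in myogenic cells. Of 19 tested, 14 were lower and 3 higher in injured than in homeostatic MuSCs, where 37.1% of all genes were lower and 37.9% higher. The median difference was log2 -3.12 for the tested collagens and 0.02 for all genes. With the cells of shared barcodes left out, 17 were again called, 14 lower and 3 higher. FAP markers moved with the falls: they summed to 894 and 899 CPM in homeostatic and 13.3 and 13.8 CPM in injured myogenic cells. Of the 12 on the list, Gsn gave 638 and 652 CPM and Dpt 192 and 185 CPM of the homeostatic sum, while Pdgfra was at 0.3001 and 0 CPM and Pi16 at 0 and 0. Mural markers summed to 229 and 202 CPM and 84.7 and 119 CPM. Of these, Acta2 went from 106 and 104 to 25.8 and 30.3 CPM, and Notch3 from 102 and 77.8 to 4.70 and 6.17 CPM. Mustn1 rose from 2.10 and 2.01 to 53.4 and 81.7 CPM. The part of either marker list in the collagen falls was not tested.

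Basement membrane collagens fell steeply. Col4a1 stood at 167 and 141 CPM in both homeostatic libraries and at 0.241 and 0.908 CPM in the injured ones (log2 -7.90 ± 0.31, edgeR adjusted p = 1.21e-12), and Col4a2 at 42.9 and 28.5 against 0.603 and 1.27 CPM (log2 -5.05 ± 0.36, edgeR adjusted p = 1.66e-09). Col15a1 had 236 UMIs in the homeostatic cells and none in the injured ones, at least 172-fold lower at the bound of 3 counts over the group. Col18a1 was at 18.6 and 18.8 against 2.05 and 1.45 CPM (log2 -3.08 ± 0.31). In all of these both homeostatic libraries lay above both injured ones, which is largely built in for called genes. Without injured MuSC 1 or 2 the difference of Col4a1 was log2 -7.07 or -8.87. The ratio of Col4a1 to Col4a2 UMIs was 3.89 and 4.94 in the homeostatic cells, above the 2.55 and 2.57 of FAPs and the 1.79 and 1.87 of endothelial cells. It was 3.72 and 2.55 in the Pi16 subset of FAPs. On few UMIs it was 4.33 and 2.35 in venular cells and 2.25 and 9 in myogenic cells of total muscle.

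Type VI and the minor fibrillar chains fell as well. Col6a1 was at 91.5 and 75.7 CPM before and 0.482 and 1.27 CPM after injury (log2 -6.39 ± 0.31, edgeR adjusted p = 1.53e-11), and Col6a2 at 22.2 and 20.1 against 0.844 and 0.726 CPM (log2 -4.42 ± 0.35). Col6a3, the chain that completes the classic type VI trimer, had only 6 UMIs in all homeostatic myogenic cells, at 0.9004 and 1.01 CPM, and a ratio to Col6a1 of 0.00984 and 0.0133, beside 0.321 and 0.320 in FAPs. Resting MuSCs thus held RNA of the alpha 1 and alpha 2 chains and next to none of alpha 3. Col5a1 was at 40.8 and 25.8 against 0.844 and 3.27 CPM (log2 -3.89 ± 0.38), Col5a3 at 40.8 and 36.2 against 2.29 and 3.27 CPM (log2 -3.55 ± 0.26) and Col5a2 at 63.9 and 64.7 against 28.7 and 31.2 CPM (log2 -0.83 ± 0.17). Col3a1 went from 248 and 223 to 18.7 and 26.5 CPM (log2 -3.12 ± 0.18), Col19a1 from 33.6 and 21.1 to 1.69 and 2.18 CPM (log2 -3.57 ± 0.32), Col27a1 from 18.3 and 13.7 to 4.10 and 4.54 CPM (log2 -1.63 ± 0.28), and Col16a1 and Col17a1 fell too. Without injured MuSC 1 or 2, Col6a1 was at log2 -5.72 or -7.06 and Col5a1 at -3.05 or -4.96, and without injured MuSC 1 Col17a1 was at -3.85. Col5a2 and Col3a1 were still at 18.7 CPM or more after injury, whereas Col4a1 and Col6a1 were at 1.27 CPM or less.

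The collagens that rose were Col1a2, Col8a1 and Col13a1. Col1a2 was at 6.00 and 7.71 CPM before and 62.4 and 67.5 CPM after injury (log2 3.52 ± 0.22, edgeR adjusted p = 3.88e-10), and Col8a1 at 3.60 and 7.71 against 45.1 and 40.7 CPM (log2 3.22 ± 0.28, edgeR adjusted p = 1.73e-08). Col13a1, of which the homeostatic cells held 3 UMIs, went from 0.3001 and 0.670 to 5.19 and 3.81 CPM a ratio of 9.76 by its counts (95% interval 3.19 to 48.6). The groups did not overlap in any of the 3, which is largely built in for called genes, and Col8a1 was at log2 3.81 without homeostatic MuSC 2. Col1a2 was seen in 1.48% and 1.80% of homeostatic and 30.6% and 18.6% of injured myogenic cells, or 0.596% and 0.617% against 5.54% and 6.15% with each cell thinned to 1000 UMIs, a depth that 1175 and 973 homeostatic and 1102 and 1513 injured cells reached. The median depth was 2453 and 2593 UMIs in the homeostatic and 7409 and 3381 UMIs in the injured cells. In B cells of total muscle Col1a2 was seen in 7.02% and 7.24% of cells at 2157 and 2171 UMIs. The leading cell held 1.55% of the Col1a2 UMIs in injured MuSC 1 and 4.30% in injured MuSC 2.

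Col1a1 did not rise with its partner chain. It was at 10.5 and 3.02 CPM in homeostatic and 0.241 and 8.53 CPM in injured MuSC 1 and 2, and was not called (log2 -0.57 ± 0.77, edgeR adjusted p = 0.513). In injured MuSC 2, 1 cell held 37 of the 47 Col1a1 UMIs, and the level without it was 1.82 CPM. The ratio of Col1a1 to Col1a2 UMIs was 0.00387 and 0.126 in injured MuSC 1 and 2, against 0.963 and 1.0029 in FAPs and 1.31 and 1.27 in tenocytes of total muscle. Both injured ratios thus lay below every ratio of the 2 collagen-rich types. Tenocyte markers summed to 77.2 and 112 CPM in injured cells, of which Scx, a transcription factor of tendon, made up 76.0 and 109.9 CPM. The tenocyte membrane protein Tnmd was at 0.121 and 0.182 CPM there.

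**Figure D5:**
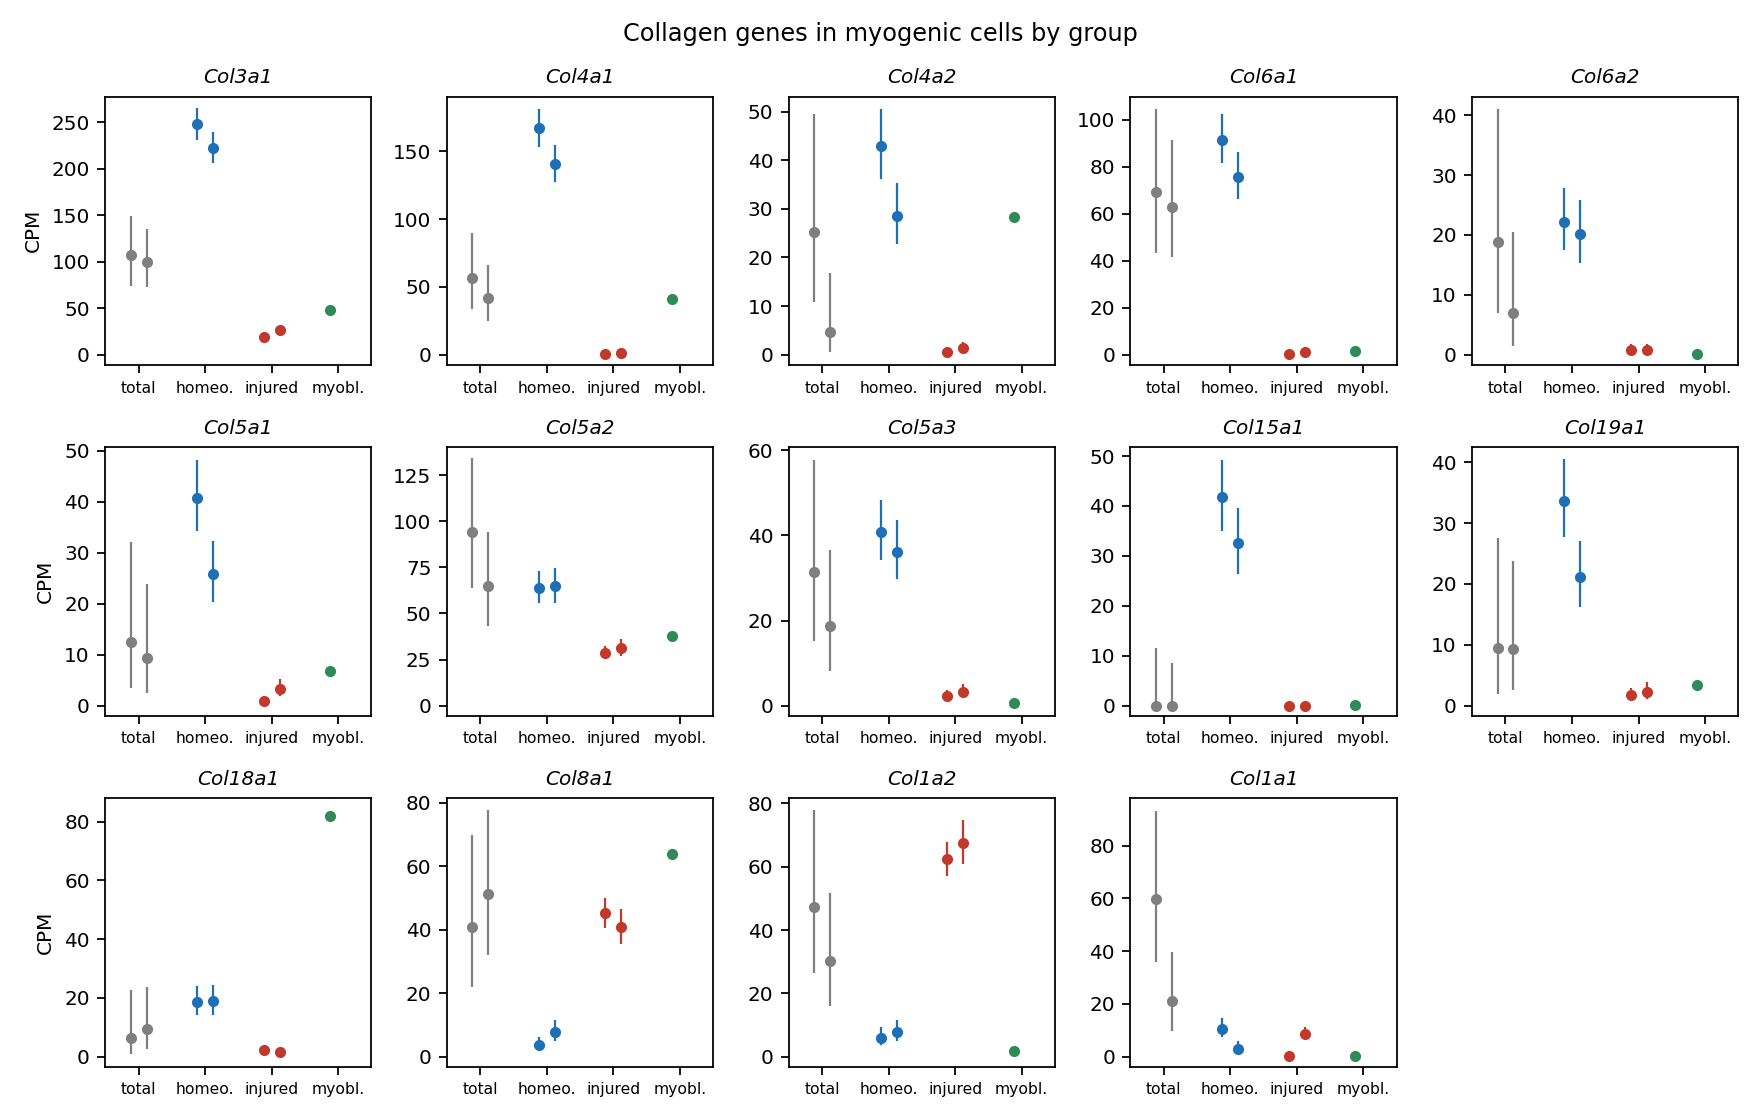
Level of 14 collagens (1 panel each, CPM on a linear vertical axis) in the myogenic cells of each group (horizontal axes: total muscle, homeostatic, injured, myoblast), with 1 point per library and 95% exact Poisson intervals that cover counting error only. Col4a1, Col6a1 and Col15a1 lie near 0 in both injured libraries, Col1a2 and Col8a1 lie above their homeostatic levels there, and Col18a1 is highest in the primary myoblasts.

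Primary myoblasts, grown on collagen-coated plates, had yet another profile. With 1 library there is no spread of its own, and the test assumes that it varies like the sorted groups. Against homeostatic MuSCs, 17 of 24 tested collagens were lower, where 32.8% of all genes were, and 4 higher, where 39.3% were, with a median of log2 -2.51 beside 0.17 for all genes (0.58 without scaling). Col18a1 was at 82.0 CPM in myoblasts, above the 18.6 and 18.8 CPM of homeostatic cells (log2 1.72 ± 0.23, edgeR adjusted p = 1.04e-07), and Col8a1 at 63.9 against 3.60 and 7.71 CPM (log2 3.11 ± 0.28, edgeR adjusted p = 9.17e-11). Col25a1, a transmembrane collagen known from the innervation of muscle, had 402 UMIs at 3.64 CPM and none in homeostatic myogenic cells (at least 7.66-fold higher). DESeq2 did not call it, and with all filtered cells the difference was log2 1.13 and not called, homeostatic MuSC 2 holding 9 Col25a1 UMIs outside the myogenic gate. Col13a1, at 4.95 CPM, had a ratio of 10.4 by its counts (95% interval 3.55 to 50.7), and Col15a1, with 2 UMIs in myoblasts, one of 2063 in favour of the homeostatic cells (565 to 17138). Col6a1 was at 1.39 CPM and Col6a2 at 0.0543 CPM, beside 91.5 and 75.7 CPM and 22.2 and 20.1 CPM in the homeostatic cells. This comparison shares its homeostatic libraries with the injury one. The lower Col4a2 (log2 -0.75 ± 0.24) was at -0.39 and not called without homeostatic MuSC 1, and not called either without scaling, by DESeq2 or without the filter on low counts. Col4a4 (log2 -1.44 ± 0.59) lost its call in the same 3 ways and with the stricter cell filter, and was not called without homeostatic MuSC 2, at -0.999, or without injured MuSC 1, at -1.42, which enters the fit for its spread. Without homeostatic MuSC 1 or 2 Col1a1 (log2 -4.87 ± 0.85; not called by DESeq2) was at -3.65 or -5.48, and without homeostatic MuSC 2 Col8a1 was at 3.74, Col13a1 (log2 2.96) at 3.62 and Col16a1 (log2 -2.57 ± 0.58) at -1.80. Mural markers summed to 1010.3 CPM in myoblasts against 229 and 202 CPM, and their part was not tested. Acta2 gave 928 CPM and Mustn1 65.6 CPM of the myoblast sum. Other mural markers were lower in myoblasts, with Notch3 at 8.35 against 102 and 77.8 CPM, and Rgs5 at 7.68 against 10.8 and 12.7 CPM. Pdgfrb was at 0.0543 against 3.90 and 3.02 CPM.

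Against injured MuSCs, 6 of 24 tested collagens were higher in myoblasts, where 33.8% of all genes were, and 6 lower, where 26.1% were. These shares, 25% each, were below that of all genes on the higher side and near it on the lower side. The median was log2 0.11 (0 at the bounds) beside 0.19 for all genes, and without scaling 69.2% of collagen calls and 81.1% of all calls were higher, against 50% of collagen calls and 56.4% of all calls with it. Col4a1 was at 40.8 CPM in myoblasts and 0.241 and 0.908 CPM in injured MuSC 1 and 2 (log2 5.61 ± 0.36, edgeR adjusted p = 6.74e-14), and Col4a2 at 28.4 against 0.603 and 1.27 CPM (log2 4.31 ± 0.36). Col18a1 stood at 82.0 against 2.05 and 1.45 CPM (log2 4.80 ± 0.28, edgeR adjusted p = 6.23e-15). Type I ran the other way: Col1a2 was at 1.66 CPM in myoblasts and 62.4 and 67.5 CPM in injured cells (log2 -5.98 ± 0.28). In the gated myoblasts 1 cell held 38.3% of the 183 Col1a2 UMIs. Outside the gates, 56 cells held 47.4% of all Col1a2 UMIs of the culture. Col6a2 and Col5a3 were lower as well (log2 -4.45 ± 0.76 and -3.03 ± 0.39), and both calls were lost with cells thinned to 1000 UMIs, at -3.05 and -2.18. The higher Col5a1 (log2 1.19 ± 0.40) lost its call without injured MuSC 1, at 0.41, and in 4 other alternatives, and was 2.32 without injured MuSC 2. The lower Col1a1 (log2 -4.35 ± 0.83) went to -0.34, not called, without injured MuSC 2, the library with the leading cell, and to -5.44 without injured MuSC 1, and DESeq2 did not call it. Without injured MuSC 1 or 2, Col4a1 was at 4.82 or 6.69. Calls of Col12a1 and Col27a1 (log2 -1.22 ± 0.45 and -0.97 ± 0.32) were lost without either injured library, without scaling and by DESeq2, that of Col27a1 also with thinned cells. Col25a1, with 1 UMI in injured cells, had a ratio of 50.2 by its counts (95% interval 8.96 to 1989). Its fitted difference of log2 4.89 was 3.64 without injured MuSC 1 and 9.78 without injured MuSC 2, which holds that UMI, and DESeq2 did not call it. Col26a1 was at 6.25 against 0.241 and 0.363 CPM (log2 3.71 ± 0.66).

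The enzymes that modify, export and crosslink collagen were followed as lists. The lists were of prolyl and lysyl hydroxylation with glycosylation, chaperones and export, propeptide processing, crosslinking, and receptors with uptake. In FAPs, where 34.4% of all genes were higher than in B cells and 27.1% lower, all 14 tested genes for hydroxylation and glycosylation were higher, as were 4 of 4 for propeptide processing, 4 of 4 for crosslinking and 6 of 6 for receptors and uptake. Of 8 for chaperones and export, 6 were higher and 2 lower. Tenocytes, where 27.0% of all genes were higher and 23.7% lower, gave the same counts except for chaperones and export, with 5 higher and 2 lower. Between tenocytes and FAPs, where 6.91% of all genes were higher in tenocytes and 11.4% lower, 8 of 14 hydroxylation genes were higher in tenocytes and 1 lower. Of the 8 chaperone and export genes 1 was higher, of the 4 propeptide processing genes 3 were lower, of the 4 crosslinking genes 2 were higher and 1 lower, and of the 6 receptor and uptake genes 2 were higher and 1 lower. P3h2, a prolyl 3-hydroxylase, was at 115 and 123 CPM in tenocytes and 4.01 and 3.72 CPM in FAPs (log2 4.72 ± 0.35). Lox, the crosslinking enzyme lysyl oxidase, was at 1938 and 1934 against 201 and 171 CPM (log2 3.21 ± 0.12). P4ha2, a catalytic subunit of prolyl 4-hydroxylase, was the exception, at 17.8 and 14.1 CPM in tenocytes and 84.5 and 86.9 CPM in FAPs (log2 -2.60 ± 0.33). Pcolce2, an enhancer of that processing, was higher in the Pi16 subset of FAPs, at 849 and 769 against 137 and 139 CPM (log2 2.36 ± 0.13). Tmem38b, an ion channel needed for collagen assembly, was higher in mural than in endothelial cells, at 240.1 and 118 against 11.2 and 13.5 CPM (log2 3.49 ± 0.45).

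In injured against homeostatic MuSCs 37.9% of all genes rose and 37.1% fell. Of 15 tested hydroxylation genes 4 rose and 6 fell, of 8 chaperone and export genes 6 fell and none rose (none either at an unadjusted p under 0.05), and of 5 collagen receptor and uptake genes all 5 fell. The counts of the hydroxylation list are near the share over all genes. Of 4 propeptide processing genes 1 rose and 2 fell, and of 3 crosslinking genes 1 rose and 2 fell. P4ha1, the main catalytic subunit of prolyl 4-hydroxylase, went from 177 and 170.3 to 8.32 and 5.99 CPM (log2 -4.29 ± 0.20), and Mia3, which loads collagen into export vesicles, from 58.5 and 61.0 to 14.2 and 11.6 CPM (log2 -1.92 ± 0.20). Loxl2, a lysyl oxidase that crosslinks type IV collagen, rose from 61.2 and 73.7 to 257 and 383 CPM (log2 2.52 ± 0.19), while the type IV genes themselves fell. In primary myoblasts Loxl2 was at 1.77 CPM and P4ha1 at 59.5 CPM, and Pcolce, a propeptide processing enhancer, at 82.5 CPM against 8.20 and 9.99 CPM in injured cells (log2 2.50 ± 0.22). Against the median of all genes, which was 0.02 in the injury comparison, the median over the lists was -0.35 for hydroxylation, -1.29 for chaperone and export and -1.47 for receptors and uptake.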

How the data were processed

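The deposited matrices hold whole-number UMI counts per gene and cell barcode, as the authors made them. Cell Ranger 2.2.0, mm10, Seurat 2.3.4 and bcl2fastq 2.17.1 are given in the submitters' processing notes, without their roles. Further filters of the authors are not given in the sources used here. Barcodes with at least 200 genes and at most 10% mitochondrial UMIs were kept. Each cell was scored on 15 marker lists without collagens, needed at least 2 markers and 5% of the level of clear cells, and was left out as mixed where the second-best list scored at least 50% of the best. Whole-gene UMI counts were summed per library and type (at least 15 cells, where 20 had been planned, so that glial cells could be tested). CPM values are UMIs scaled to the summed UMIs of the same cells.

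Sums were tested with edgeR 4.0.16 in R 4.3.3 (quasi-likelihood, TMM scaling, its filter on low counts, Benjamini-Hochberg adjustment over all genes tested). The filter took all sums of a fit together, so a gene could pass it through the single type or group where it was high. Comparisons of types used both total muscle libraries with library as a block, and those of myogenic cells had no block. A gene was called at an adjusted p under 0.05. Each SE was worked back from the test, as the absolute log2 difference divided by the square root of its F statistic. On simulated counts, 4-fold changes were recovered for 64.5% of changed genes between tenocytes and FAPs (6555 genes), 22.7% between glial and B cells (6542 genes) and 96.2% between injured and homeostatic cells (10092 genes), and 2-fold changes for 23.4%, 3.88% and 62.8%. Depth ranged from 1295 to 4429 barcodes per library, of which 1256 to 4414 were kept. Intervals of CPM values are exact Poisson and those of count ratios exact binomial, at 95%, and they and the floor of 3 counts cover counting error only.

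The collagens, marker lists and pathway lists were chosen with earlier results of these data known. Collagens named are those with at least 20 CPM in both libraries of a type or in every library of a myogenic group, and up to 3 genes per comparison from the pathway lists, those with the largest changes among called genes of at least 50 CPM on the higher side. Other collagens were named where a call or a count turned on them. Alternatives were DESeq2 1.42.0, its size factors, no scaling, no filter on low counts, stricter cell filters (500 genes, 5%), mixed cells kept, all filtered cells of the sorted libraries, clusters (scanpy 1.11.5; 2000 genes, 30 components, 20 neighbours, resolution 1) in place of gates, cells thinned to 1000 UMIs, barcodes rich in G or C (at least 8 of 16 bases), the block changed, barcodes held by both injured libraries left out, and, for myogenic cells only, each library but the myoblast one left out. Comparisons of types and subsets were not refitted with a library left out. Barcodes poor in G or C, a minimum of 20 cells, and Col1a1 without its leading cell were added after seeing the data. Start regions are from RefSeq, GRCm38.p6, and gene positions from GENCODE M21.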

Additional observations from a re-analysis of the deposited data

How the results depend on the processing

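The collagen comparisons gave 213 called results of single genes. Over 2269 tries under the alternatives, 2154 kept direction and call, 110 kept the direction without the call and 5 turned: Col6a1 in glial against B cells (-3.59, thinned cells), Col20a1 in macrophages against B cells (-2.14, clusters), Col8a1 in glial cells against FAPs (0.71, clusters), and Col1a2 (0.56) and Col1a1 (0.64) in homeostatic MuSCs against total muscle (all filtered cells, all log2). Of 184 counts of called collagens, 171 stayed within 1.5 times and 13 did not. With cells thinned to 1000 UMIs, where fewer genes were tested, these were 14 for tenocytes, 5 for endothelial cells, 7 for glial cells and 1 for macrophages against B cells, 13 between tenocytes and FAPs, 6 between the FAP subsets, 3 between venular and capillary cells and 5 between myoblasts and injured cells. For macrophages against B cells the count was 1 without scaling, by DESeq2 and with at least 20 cells (added after seeing the data), and 4 with clusters. For myoblasts against injured cells it was 7 by DESeq2. The cause was not tested for these. Leaving out 1 library at a time gave 16 to 19 calls after injury, 6 to 9 for the sort, 19 to 21 for myoblasts against homeostatic and 9 to 14 against injured cells.

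The labels pair no libraries of different groups. Same-numbered deviations of homeostatic MuSCs correlated at -0.022 with those of injured MuSCs and at 0.085 with those of total muscle, among myogenic cells. With a single difference between libraries per group, this cannot exclude a pairing. With the number as a replicate block, 17 collagens were called after injury and 8 for the sort, and all 23 calls made without it held. Of 157 called results of cell types, 155 had the same direction in each library alone, the exceptions being Col16a1 in mural and Col20a1 in macrophage cells against B cells. The calls came from these same 2 libraries, so this agreement was largely built in and is no replication. All 56 calls tested without the shared barcodes held, as did 16 with barcodes rich and 14 with barcodes poor in G or C. The planned test of smooth muscle cells against pericytes could not be fitted, with 8 and 7 cells. Without scaling beyond the total count, the median log2 of all genes moved from -0.61 to 0.20 between glial cells and FAPs, from -0.39 to -0.07 between mural and endothelial cells, from 0.02 to -0.25 after injury, from 0.17 to 0.58 in myoblasts against homeostatic and from 0.19 to 0.89 against injured cells. The share of higher calls among all genes then moved from 25.2% to 64.4% (glial cells against FAPs), 37.7% to 53.2% (tenocytes against FAPs), 34.5% to 57.2% (FAP subsets), 49.4% to 70.2% (glial against B cells) and 55.9% to 45.6% (FAPs against B cells). Depth limits values that rest on fewer than 20 UMIs, among them several of glial, mural and venular cells, the macrophage calls and some of the myogenic cells of total muscle.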
